A study of Mus musculus with 6 samples.

Results

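Guanylate-binding proteins (GBPs) and immunity-related GTPases (IRGs) are the 2 large families of interferon-inducible GTPases in mouse cells, and 10 of their genes are described here across the injured livers of IRF8-cKO and WT mice. The members were taken by gene symbol: Gbp2, Gbp3, Gbp6, Gbp7 and Gbp9 of the GBP family, and Igtp, Irgm1, Irgm2, Iigp1 and Tgtp1 of the IRG family. All 10 were found among the 54532 genes of the deposited count table. RNA was sequenced from the ischemic lobe of the liver of C57BL/6 mice clamped for 1 h and reperfused for 12 h before sampling, with 3 libraries for hepatocyte-specific IRF8 deficiency (IRF8-cKO-71, IRF8-cKO-88, IRF8-cKO-106) and 3 for the wild type (WT-14, WT-44, WT-77). Values per library follow this order of numbers throughout. Both groups were operated on and none was left uninjured, so no uninjured level is known. The labels give neither the age of the mice nor the construct that removes Irf8, and a lobe holds blood, immune, duct and vessel cells besides hepatocytes. In such bulk tissue, fewer cells of a type and less RNA per cell cannot be told apart. Nothing in the labels says that the numbered libraries are separate animals, so the spread between them may be technical in part.

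Interferon gamma binds its receptor on hepatocytes, macrophages and endothelial cells, the receptor-bound kinases JAK1 and JAK2 become active, and the signal reaches GAS elements in target promoters. The transcription factor IRF1, itself induced, binds interferon-stimulated response elements (ISREs), and IRF8 binds ISREs and composite ETS-IRF elements together with partner proteins. The GTPases made in response coat the vacuoles of intracellular microbes and disrupt them. Among the IRGs, Irgm1, Irgm2 and Igtp (also called Irgm3) encode regulatory members that sit on the cell's own membranes, whereas Iigp1 (Irga6) and Tgtp1 (Irgb6) encode effector members that load onto vacuoles.

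Promoter sequences of both families were searched for these elements, and 5 of them are shown because mean levels were lower in IRF8-cKO for the GBP genes and not for most IRG genes. RefSeq windows from 250 bases before to 50 bases after the RefSeq gene start were present for 7 of the 10 members (GRCm38.p6, the assembly of mm10). RefSeq starts can differ from those of the counted genes. The windows of Irgm1, Irgm2 and Tgtp1 lie wholly within the deposited gene bounds. Gbp6, Gbp9 and Iigp1 are named only. The search covered 3 motifs on both strands: GAS as TTCNNNGAA, ISRE as GAAA followed after 2 bases of any kind by a further GAAA, and ETS-IRF as GGAA followed after 2 bases by GAAA. ISRE and ETS-IRF matches can overlap. Capitals mark their matches, read 5′ to 3′ on the strand of the gene.
Gbp3, chr3:142559794-142560093, plus strand: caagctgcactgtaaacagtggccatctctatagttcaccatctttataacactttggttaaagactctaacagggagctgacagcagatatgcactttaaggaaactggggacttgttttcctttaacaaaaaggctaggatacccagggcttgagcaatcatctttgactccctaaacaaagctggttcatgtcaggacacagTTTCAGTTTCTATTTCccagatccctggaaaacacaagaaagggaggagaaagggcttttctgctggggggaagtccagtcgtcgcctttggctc
Gbp7, chr3:142530086-142530385, plus strand: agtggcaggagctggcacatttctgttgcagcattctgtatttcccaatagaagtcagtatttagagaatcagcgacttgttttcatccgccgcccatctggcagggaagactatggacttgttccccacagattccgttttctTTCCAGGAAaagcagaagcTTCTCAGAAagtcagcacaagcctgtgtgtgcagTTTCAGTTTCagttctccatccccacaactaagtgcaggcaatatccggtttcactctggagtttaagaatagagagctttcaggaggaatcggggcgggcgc
Irgm1, chr11:48871371-48871670, minus strand: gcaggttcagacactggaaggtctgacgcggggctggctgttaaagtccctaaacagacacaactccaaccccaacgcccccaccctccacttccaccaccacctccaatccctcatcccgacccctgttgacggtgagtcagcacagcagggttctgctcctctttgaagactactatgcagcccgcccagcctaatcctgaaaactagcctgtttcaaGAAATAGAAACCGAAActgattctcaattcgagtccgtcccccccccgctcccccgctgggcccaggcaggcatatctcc
Igtp, chr11:58199306-58199605, plus strand: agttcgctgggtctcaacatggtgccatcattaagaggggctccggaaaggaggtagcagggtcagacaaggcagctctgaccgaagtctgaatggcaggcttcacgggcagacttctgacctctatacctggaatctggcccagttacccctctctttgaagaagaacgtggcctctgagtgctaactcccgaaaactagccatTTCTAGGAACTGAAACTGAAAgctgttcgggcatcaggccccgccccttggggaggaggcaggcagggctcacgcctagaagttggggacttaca
Irgm2, chr11:58214727-58215026, plus strand: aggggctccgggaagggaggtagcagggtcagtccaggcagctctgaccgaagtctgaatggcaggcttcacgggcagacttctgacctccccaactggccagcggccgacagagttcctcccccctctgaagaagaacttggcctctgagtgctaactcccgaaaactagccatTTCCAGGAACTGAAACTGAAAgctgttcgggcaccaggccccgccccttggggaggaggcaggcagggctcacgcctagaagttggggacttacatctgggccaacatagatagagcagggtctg
Each of the 7 genes had a window with an ISRE match (Gbp3 also had a second window without one), against 3.44% of the 32851 windows of that length in the RefSeq table. GAS matches were present in Gbp7, Igtp, Irgm2 and Tgtp1 (8.30% of all windows) and ETS-IRF matches in Igtp, Irgm2 and Tgtp1 (2.72%). ETS-IRF matches were not limited to IRG genes. The window of Gbp5, a GBP gene outside the members, held 2 GAS, 1 ISRE and 1 ETS-IRF match. The ISRE match of Gbp2 (window chr3:142620413-142620712, plus strand) read TTTCACTTTC and began at position -59 from the RefSeq gene start. Gbp3 and Irgm1 each had 2 ISRE matches that overlapped one another.

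Igtp, Irgm2 and Tgtp1 carried the same arrangement, a GAS, an ETS-IRF and an ISRE match that overlap in a run of 21 bases. Capitals mark this whole run, and that of Tgtp1 lies in the window chr11:48992197-48992496 on the minus strand.
Igtp: TTCTAGGAACTGAAACTGAAA
Irgm2: TTCCAGGAACTGAAACTGAAA
Tgtp1: TTCCAGGAATCGAAACTGAAA
Searched for after these windows had been seen, the arrangement (the GAS match with its last bases shared by the ETS-IRF match, whose GAAA starts the ISRE match) occurred in 5 of the 32851 windows (0.0152%), those of Igtp, Irgm2, Tgtp1, Tgtp2 and Gm12185. The Igtp and Irgm2 windows were identical at 244 of 265 aligned bases (92.1%). None of the GBP windows shown held the 21-base pattern. A match describes letters in a window and does not show that a factor was bound in these livers.

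The GBP genes had lower mean levels in IRF8-cKO than in WT and the IRG genes did not share that course, but no member passed the test over all genes. All 5 GBP members had negative log2 fold changes (median -1.20), and so they did under each of the 14 alternative scalings, filters, tests and left-out libraries. Of the 5 IRG members, 4 had positive values and 1 negative, with a median of 0.18. The difference between the families was not tested. In edgeR's quasi-likelihood test with Benjamini-Hochberg adjustment, 0 of 10 members were called, against 1.39% of the 13134 genes tested (182, of which 59 were higher and 123 lower, or 39 and 43 when scaled by library totals). At an unadjusted p under 0.05 there were 4 of 10 members against 24.1% of all genes. The count of all genes called rested on single libraries: it was 0 without WT-77 (smallest adjusted p = 0.152 in edgeR), 1 without WT-44 and 20 without IRF8-cKO-106. Leaving out IRF8-cKO-88 gave 1205 (8.83% of the genes tested then), with 2 members, Gbp3 and Irgm2, among them. DESeq2 called 1 member, Gbp3, where it called 11.3% of all genes, and limma-voom called 0, where it called 0.845%. With no low-count filter edgeR called Gbp3 and Irgm2, where it called 7.15% of all genes. Scaled counts (CPM, on TMM-adjusted library totals) lay below every WT library in all IRF8-cKO libraries for 4 of 10 members, all of them GBP genes, where 14.5% of all genes tested did so (28.9% did not overlap in either direction). The median log2 fold change of the 10 members was -0.42 and that of all genes 0.03.

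**Figure D1:**
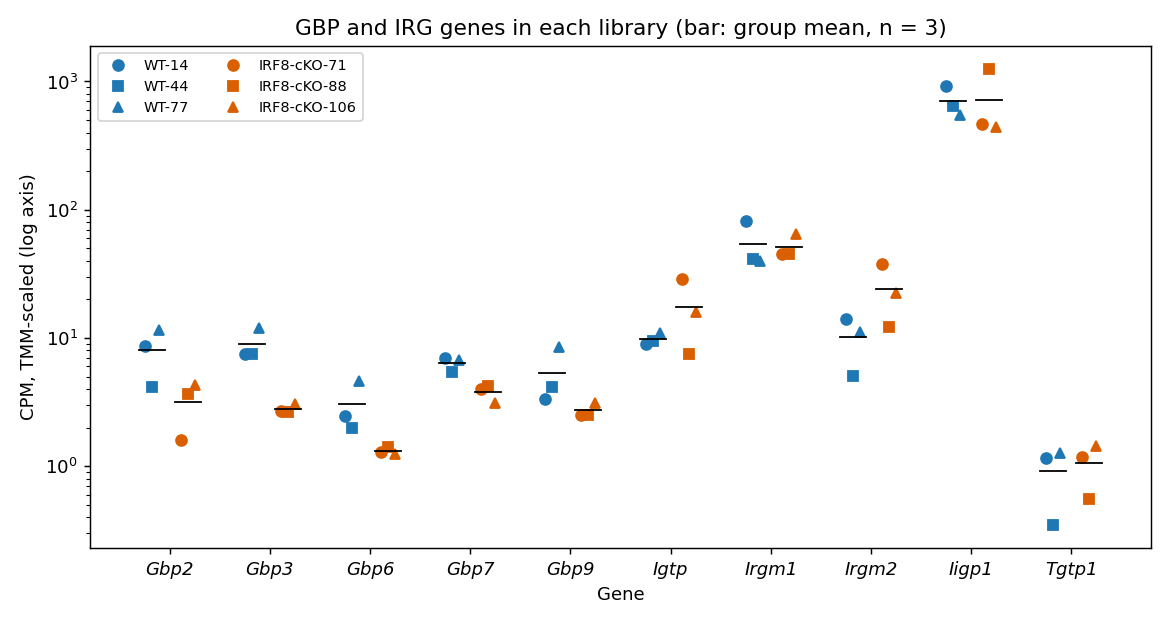
CPM on a log axis for the 10 members, with 1 point per library, blue for WT and orange for IRF8-cKO, and a bar for each group mean of 3 libraries. The orange points of Gbp3, Gbp6, Gbp7 and Gbp9 all sit below the blue ones, those of Igtp and Irgm2 reach higher but overlap them, and Iigp1 stands far above the other genes in every library.

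Gbp3 (ENSMUSG00000028268, chromosome 3, 142560026 to 142573209, plus strand, mm10) lay in the GBP cluster of chromosome 3 and was the member with the lowest p. There were 122, 87 and 179 reads in WT and 44, 43 and 66 reads in IRF8-cKO. Scaled, these were 7.48, 7.51 and 11.9 CPM in WT and 2.71, 2.65 and 3.06 CPM in IRF8-cKO. The 3 IRF8-cKO values were close together and the lowest WT value was more than any of them. The means were 8.96 ± 2.54 and 2.81 ± 0.219 CPM (SD, n = 3 each), and the log2 fold change of -1.67 (SE 0.36) did not pass in edgeR (adjusted p = 0.0539). It ranged from -1.79 to -1.42 with 1 library left out, and the call was made in edgeR without IRF8-cKO-88 (adjusted p = 0.0376) and in DESeq2 (adjusted p = 0.000908).

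Gbp2 (ENSMUSG00000028270, chromosome 3, 142620602 to 142638008) encodes a GBP known for recruitment to the vacuoles of intracellular parasites and bacteria. Its levels were 8.58, 4.14 and 11.6 CPM in WT and 1.60, 3.64 and 4.31 CPM in IRF8-cKO. The groups overlapped, since WT-44 was below IRF8-cKO-106. The log2 fold change was -1.34 (SE 0.50, adjusted p = 0.145 in edgeR).

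Gbp7 (chromosome 3, 142530342 to 142550149), whose product takes part in antimicrobial defence of macrophages, had the steadiest levels of the GBP genes within WT. It stood at 6.93, 5.44 and 6.78 CPM in WT and at 4.01, 4.26 and 3.10 CPM in IRF8-cKO, without overlap. Its log2 fold change of -0.75 (SE 0.35, adjusted p = 0.219 in edgeR) was the smallest of the 5 GBP members. Of the exon bases of Gbp7 in the GENCODE M21 annotation, 637 (11.35%) are shared on the same strand with the processed pseudogene Gm43802.

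Gbp6 and Gbp9 belong to the second GBP cluster, on chromosome 5 (105270702 to 105293698 and 105077630 to 105139539, both on the minus strand). Gbp9 was at 3.37, 4.14 and 8.44 CPM in WT and at 2.53, 2.53 and 3.10 CPM in IRF8-cKO. Gbp6 was at 2.45, 1.99 and 4.65 CPM in WT and at 1.29, 1.42 and 1.25 CPM in IRF8-cKO in the same order. Neither gene overlapped between groups, and WT-77 was the highest library for both. The log2 fold changes were -0.96 (SE 0.44, adjusted p = 0.216 in edgeR) for Gbp9 and -1.20 (SE 0.48, adjusted p = 0.172) for Gbp6. Without WT-77 they were -0.47 and -0.75. The count of Gbp6 is uncertain, because 59.7% of the 50-base stretches of its longest transcript also occur in other genes, foremost Gm43302 and Gbp10.

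Igtp and Irgm2 had higher mean levels in IRF8-cKO, carried by 2 of its 3 libraries. Igtp (ENSMUSG00000078853, chromosome 11, 58199556 to 58207591) was covered by 146, 109 and 164 reads in WT and by 470, 121 and 343 reads in IRF8-cKO. In CPM these were 8.95, 9.41 and 10.9 against 29.0, 7.46 and 15.9. WT libraries were close together, IRF8-cKO-71 and IRF8-cKO-106 exceeded all of them, and IRF8-cKO-88 was the lowest of the 6. The log2 fold change was 0.84 (SE 0.44, adjusted p = 0.266 in edgeR), and it was 0.27 without IRF8-cKO-71 and 1.20 without IRF8-cKO-88.

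Irgm2 (ENSMUSG00000069874, chromosome 11, 58199618 to 58222782) followed Igtp among the IRF8-cKO libraries. It was at 13.97, 5.09 and 11.2 CPM in WT and at 37.5, 12.3 and 22.3 CPM in IRF8-cKO. The groups overlapped only through IRF8-cKO-88, which lay below WT-14. Its log2 fold change of 1.25 (SE 0.47) was the most positive of the members and did not pass in edgeR (adjusted p = 0.151), but passed without IRF8-cKO-88 (1.56, adjusted p = 0.0440). Without IRF8-cKO-71 it was 0.78. The 2 genes lie on the same strand and share 162 exon bases in the GENCODE M21 annotation, 8.01% of the exon bases of Igtp and 4.39% of those of Irgm2, so a small part of their reads cannot be assigned to one of them.

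The ratio of Igtp to Gbp3 reads is free of library scaling. It was 1.20, 1.25 and 0.916 in WT and 10.7, 2.81 and 5.20 in IRF8-cKO. The 3 IRF8-cKO ratios were all above the WT ones, IRF8-cKO-88 included. This pair was chosen after its values were seen, and no test was made of it.

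**Figure D2:**
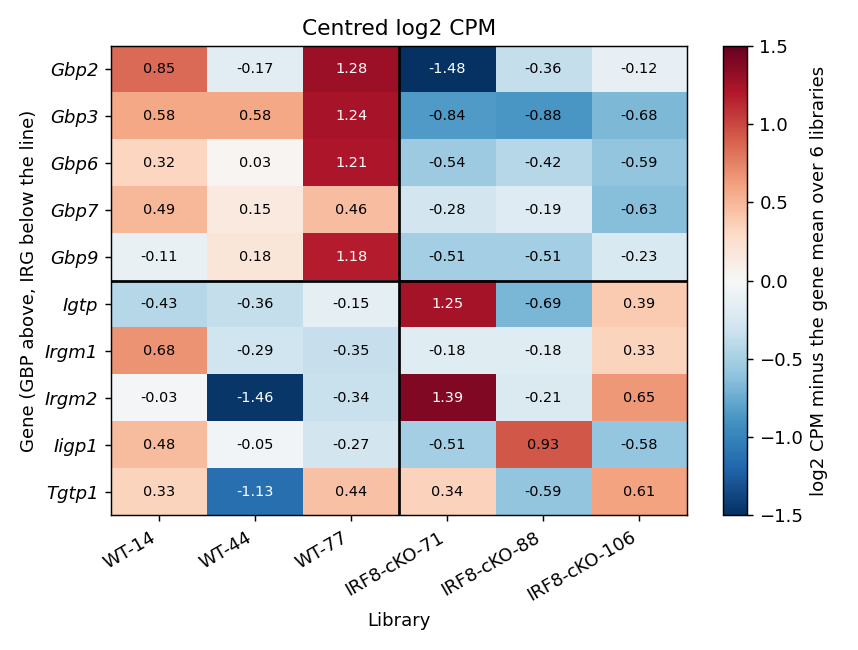
Log2 CPM of each member (rows) in each library (columns) minus the gene's mean over the 6 libraries, with the value written in each cell, red for above and blue for below the mean. The IRF8-cKO cells of the GBP rows are all below 0, while the Igtp and Irgm2 rows reach 1.25 and 1.39 in IRF8-cKO-71 and are below 0 in IRF8-cKO-88.

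Irgm1 (ENSMUSG00000046879, chromosome 11, 48861968 to 48871683, minus strand), the regulatory IRG best known for its part in autophagy and resistance to mycobacteria, had similar means in the groups. It was at 81.6, 41.6 and 40.0 CPM in WT and at 45.0, 45.0 and 64.4 CPM in IRF8-cKO. WT-14 was the highest of the 6 libraries and the groups overlapped. The log2 fold change was -0.08 (SE 0.34, adjusted p = 0.903 in edgeR), with bounds of -0.75 and 0.59 at 2 SE on either side, and it turned positive with library totals (0.13).

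Iigp1 (ENSMUSG00000054072, chromosome 18, 60376029 to 60392627) made up most of the members' reads. It had 15040, 7424 and 8241 reads in WT and 7551, 20375 and 9547 reads in IRF8-cKO, which was 78.8% to 94.0% of all reads on the 10 genes. Scaled, the levels were 922, 641 and 548 CPM in WT and 466, 1257 and 442 CPM in IRF8-cKO. The IRF8-cKO group held both the highest library and the 2 lowest, and its highest value was 2.84 times its lowest. The log2 fold change was 0.04 (SE 0.45, adjusted p = 0.968 in edgeR), with bounds of -0.85 and 0.93 at 2 SE, and it was -0.63 without IRF8-cKO-88. IRF8-cKO-88, the library lowest for Igtp, was thus the highest for Iigp1.

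Tgtp1 (ENSMUSG00000078922, chromosome 11, 48985327 to 48994172) had few reads, from 4 in WT-44 to 31 in IRF8-cKO-106. Its log2 fold change was 0.18 (SE 0.62, adjusted p = 0.884 in edgeR), with bounds of -1.07 and 1.42 at 2 SE on either side. Of its 50-base stretches 91.4% occur in other genes, mainly its near-copy Tgtp2, and with the reads of both genes summed the value was -0.29 (adjusted p = 0.721).

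Per deposited gene length, the members spanned a wide range of levels in WT livers. In reads per kilobase of the deposited gene length, scaled as CPM (RPKM), Iigp1 averaged 225 ± 62.4, Irgm1 9.37 ± 4.06, Igtp 4.82 ± 0.503, Gbp2 3.22 ± 1.48, Gbp3 2.74 ± 0.778 and Irgm2 2.74 ± 1.23 (SD, n = 3). Gbp7 followed at 1.14 ± 0.146, Gbp9 at 1.03 ± 0.528, Gbp6 at 0.509 ± 0.239 and Tgtp1 at 0.288 ± 0.157 RPKM. Ranges over the WT libraries did not overlap between Iigp1 and Irgm1, between Irgm1 and Igtp, or between Irgm2 and Gbp7, and every other pair of neighbours in this order overlapped. The level of Iigp1 averaged 25.1 times that of Irgm1 per library in WT, or 13.4 times with exon bases from GENCODE M21 as the length, since the deposited length of Iigp1 is 3121 bases and its exons there cover 5823. In IRF8-cKO livers Igtp and Irgm2 averaged 8.63 ± 5.36 and 6.51 ± 3.44 RPKM, and Gbp2 and Gbp3 1.27 ± 0.560 and 0.860 ± 0.0670 RPKM.

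Over the 6 libraries, distances between the profiles of 2 GBP genes were 0.24 to 0.66. Those between 2 IRG genes were 0.54 to 1.20, so the ranges overlapped. Likeness was measured as the root mean square difference between 2 genes' log2 CPM, each centred on its own mean, over the 6 libraries, which share the same library totals. Gbp6 and Gbp9 were the closest pair (0.24), followed by Gbp3 and Gbp6 (0.34) and by Gbp6 and Gbp7 (0.35). The most distant pairs were Gbp3 and Irgm2 (1.54) and Gbp2 and Irgm2 (1.52). Pairs across the families were not all distant. Gbp7 lay nearer to Irgm1 (0.55) and Iigp1 (0.56) than to Gbp2 (0.66). The genes outside the pathway lists that lay nearest the mean of all 10 members were Tmem123 (0.084), Cox11 (0.087), Cdk19 (0.099), Slco1a4 (0.12) and Klf13 (0.13). That mean ranged from -0.31 in IRF8-cKO-88 to 0.47 in WT-77. The members themselves lay farther from it than these genes, at 0.30 (Gbp7) to 0.92 (Irgm2).

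Other genes of the 2 families were taken from a list of 16, of which 13 had at least 10 reads in a library and 11 were tested. One of the 11 was called: Irgq, an atypical IRG-like gene, was higher in IRF8-cKO (background 0.449% of genes called higher). Irgq rose from 18.5, 11.1 and 10.8 CPM in WT to 37.1, 48.2 and 49.8 CPM in IRF8-cKO, without overlap (log2 fold change 1.74, SE 0.30, adjusted p = 0.0408 in edgeR). The call was lost without WT-77, WT-44 or IRF8-cKO-106 (adjusted p = 0.192, 0.176 and 0.0823). The other 10 did not pass, with a median over the 11 of -0.36 against 0.03 for all genes tested.

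Of the other Gbp genes tested, 3 of 4 had negative log2 fold changes. Gbp4 and Gbp5 did not overlap between groups, at 3.68, 5.09 and 12.6 CPM against 1.97, 2.28 and 2.22 CPM for Gbp4 (-1.72, SE 0.50, adjusted p = 0.0910 in edgeR), and at -1.24 (adjusted p = 0.179) for Gbp5. Without WT-77, Gbp4 was at -1.02. Gbp11 stood at -1.09 (-0.58 without WT-44 and -0.68 without IRF8-cKO-106) and Gbp8 at 0.40, which turned to -0.46 without IRF8-cKO-71. The exons of Gbp9, Gbp8 and Gbp4 share 60 bases, a small part of each count. Gbp2b and Gm5431 had at most 10 reads in a library and were not tested. Gbp2b was higher in each IRF8-cKO library, at 0.184, 0.173 and 0.133 CPM in WT and 0.432, 0.432 and 0.463 CPM in IRF8-cKO.

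Among the other IRG-like genes, Gm4951, next to the Iigp1 region on chromosome 18 (60212080 to 60247820), stood at 28.6, 8.55 and 12.8 CPM in WT and at 53.3, 22.3 and 65.9 CPM in IRF8-cKO. The fitted ratio of 2.83 (SE 0.51 on the log2 scale, adjusted p = 0.128 in edgeR) did not pass, except without IRF8-cKO-88 (adjusted p = 0.0356), and IRF8-cKO-88 lay between WT libraries as it did for Irgm2. Gm12250, the gene of the effector IRGB10, had 3 to 38 reads and a value of -1.13. Tgtp2 (-0.58), F830016B08Rik (-0.36), 9930111J21Rik2 (0.31) and Gvin1 (0.40) completed the list.

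**Figure D3:**
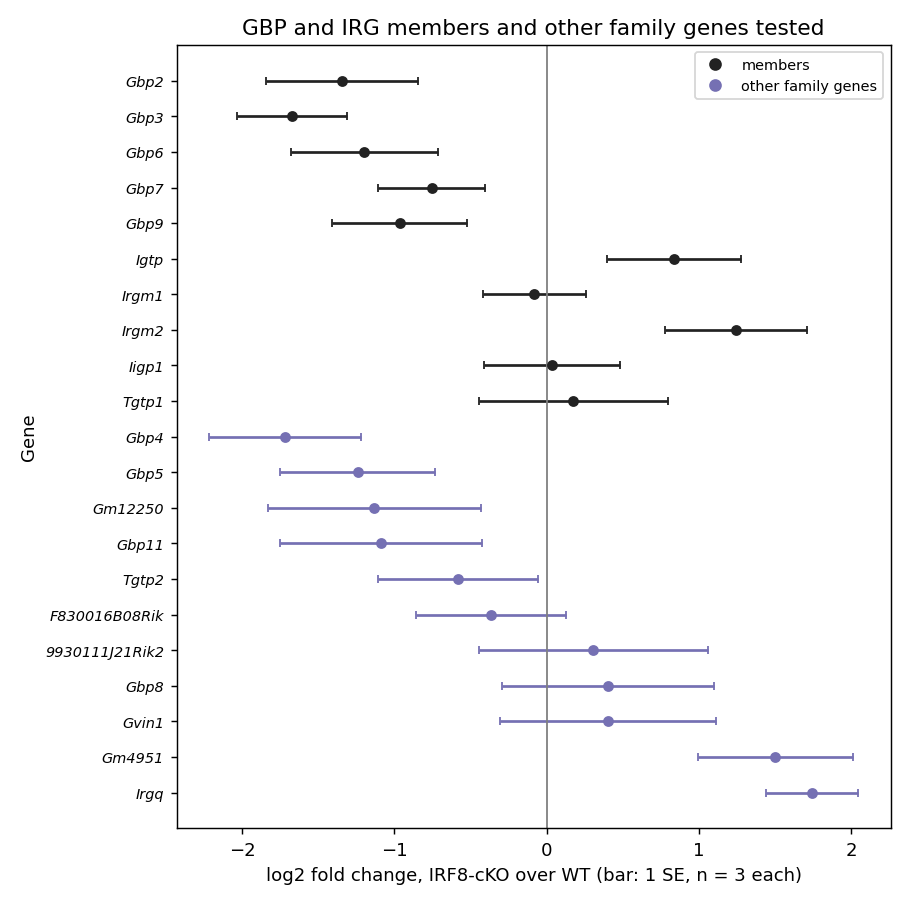
Log2 fold change of IRF8-cKO over WT with bars of 1 SE (n = 3 libraries per group) for the 10 members (black) and the 11 other family genes tested (purple). All GBP members, Gbp4, Gbp5 and Gbp11 are left of 0, and Irgm2 (1.25), Gm4951 and Irgq (1.74) are farthest to the right.

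Upstream of the GTPases, the ligand was at the limit of detection. Ifng, the gene of interferon gamma, had 1 read in WT-77, 1 in IRF8-cKO-71 and 0 in the other 4 libraries, and a count of 0 allows up to 3 reads. Of the 26 genes on a list of interferon-gamma signalling, 19 were tested, 0 were called higher and 1 lower (background 0.937% lower), and the median was -0.12. The gene called was Socs3, a feedback inhibitor of JAK-STAT signalling that many cytokines induce, at 239, 534 and 558 CPM in WT and 54.8, 109 and 51.1 CPM in IRF8-cKO. Its fitted difference was -2.63 on the log2 scale (SE 0.44, adjusted p = 0.0381 in edgeR). The call was lost without WT-77, WT-44 or IRF8-cKO-106 (adjusted p = 0.170, 0.173 and 0.0848).

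The receptor genes Ifngr1 (-0.42, adjusted p = 0.386) and Ifngr2 (-0.12, adjusted p = 0.811) and the kinase gene Jak1 (-0.09, adjusted p = 0.869) overlapped between groups in the edgeR comparison. Jak2 did not overlap, at 32.8, 28.3 and 42.1 CPM in WT and 12.3, 17.0 and 21.5 CPM in IRF8-cKO, and did not pass (log2 fold change -1.02, SE 0.30, adjusted p = 0.0910 in edgeR). Socs1, an inhibitor of signalling from interferon receptors, stood at 18.5, 42.5 and 25.8 CPM in WT and at 0.987, 9.68 and 2.78 CPM in IRF8-cKO. It did not pass in edgeR (-2.69, SE 0.73, adjusted p = 0.0887), except without IRF8-cKO-88 (-3.91, adjusted p = 0.00595).

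Of the transcription factors, Irf9, part of a complex that binds ISREs, was at 24.7, 21.8 and 23.0 CPM in WT and at 46.9, 18.4 and 25.3 CPM in IRF8-cKO. Like Igtp, it was highest in IRF8-cKO-71, next in IRF8-cKO-106 and lowest in IRF8-cKO-88. Its log2 fold change was 0.38 (SE 0.34, adjusted p = 0.518 in edgeR) and turned to -0.07 without IRF8-cKO-71, and that of Irf1 was -0.12 (adjusted p = 0.854). Irf8, the targeted gene, was at 9.32, 9.50 and 10.3 CPM in WT and at 5.67, 6.72 and 4.17 CPM in IRF8-cKO, without overlap (log2 fold change -0.81, SE 0.33, adjusted p = 0.174 in edgeR). A gene count of whole tissue does not show whether an exon was removed in hepatocytes.

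Of 24 other target genes of interferon gamma, 21 were tested and 0 were called in edgeR, with a median of -0.58. An unadjusted p under 0.05 in edgeR was found for 7 of the 21, against 24.1% of all genes tested. Negative values were found for 20 of the 21, against 6366 of all 13134 genes tested. The exception was Wars at 0.71, named after its value was seen. The chemokine gene Cxcl9, induced mainly by interferon gamma, was at 8.83, 8.03 and 15.7 CPM in WT and at 4.75, 5.18 and 4.08 CPM in IRF8-cKO, without overlap (-1.22, SE 0.37, adjusted p = 0.0987). As for Gbp2, Gbp3, Gbp6, Gbp9, Gbp4 and Gbp5, WT-77 was the highest library, whereas Gbp7 was highest in WT-14. Cxcl10 was at 7.23, 4.14 and 41.7 CPM in WT and at 1.73, 2.53 and 2.92 CPM in IRF8-cKO. WT-77 stood far above the other libraries, and the value of -2.88 (adjusted p = 0.0948 in edgeR) was -1.25 without it. The immunoproteasome subunit gene Psmb10 stood at -1.33 (adjusted p = 0.0531 in edgeR) and Cd274, encoding PD-L1, at -2.24 (adjusted p = 0.0554). Without IRF8-cKO-88 both passed (adjusted p = 0.0393 and 0.00595), and Psmb10 also without IRF8-cKO-71 (0.0449). Negative values were also found for 19 of 20 tested type I interferon signature genes, which share ISREs with the GTPases. Their median was -1.30, and 10 of them had an unadjusted p under 0.05 in edgeR, against 24.1% of all genes tested. Of the 20, 3 were called lower (Ifit3 at -2.64, Mx2 at -2.03 and Irf7 at -1.30) against 0.937% of all genes, and 0 higher. None of these 3 calls was made in edgeR without WT-77, WT-44 or IRF8-cKO-106 (adjusted p from 0.0638 to 0.192), and that of Irf7 was also lost without WT-14 (0.0602) and IRF8-cKO-71 (0.0518).

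**Figure D4:**
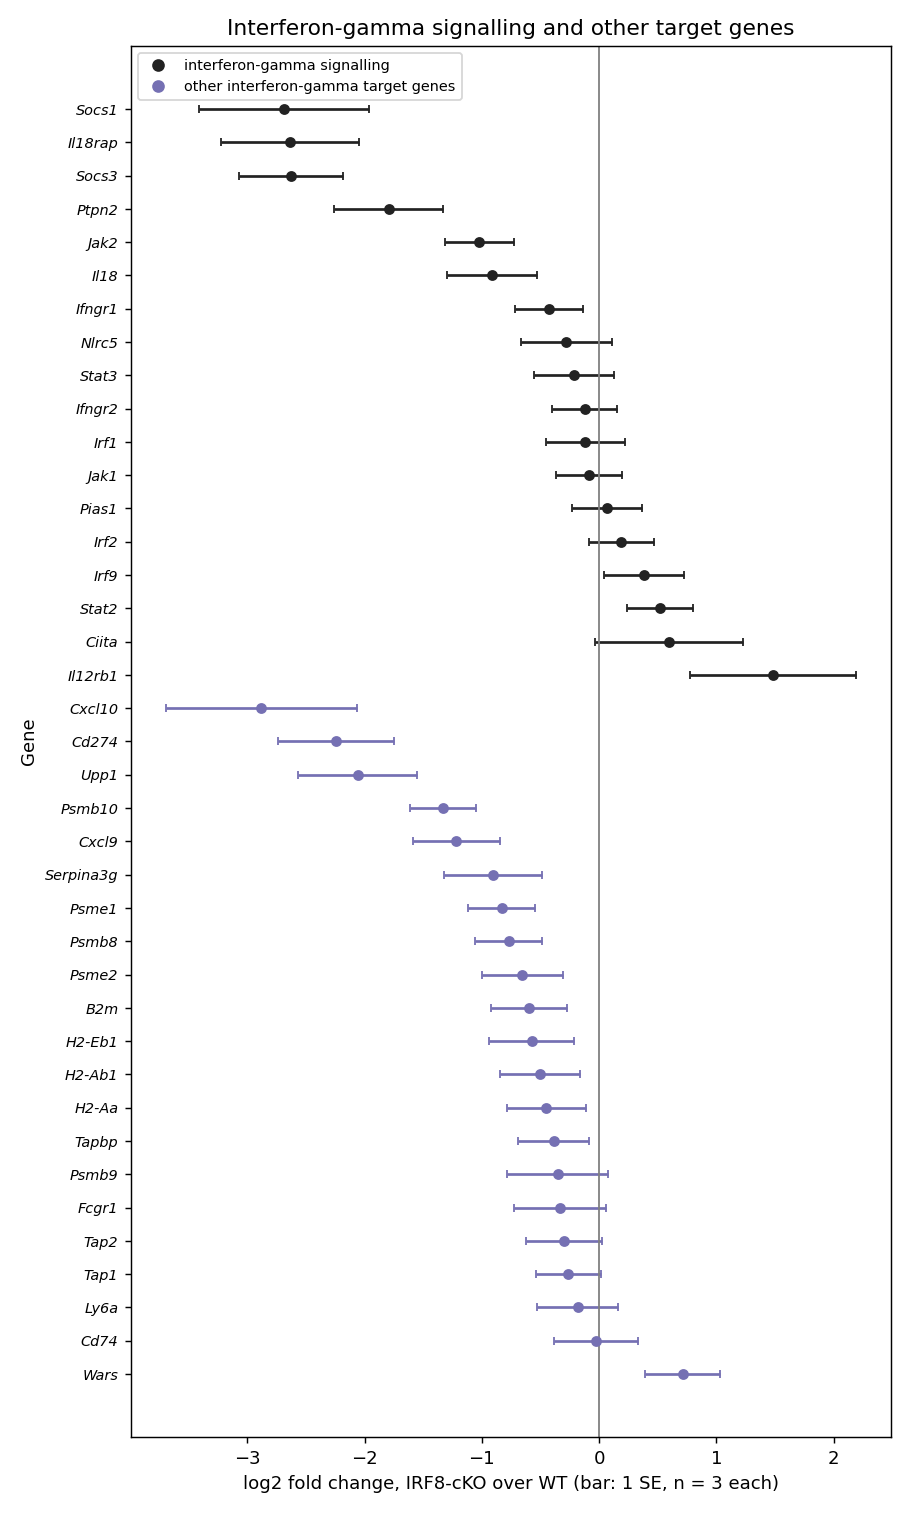
Log2 fold change of IRF8-cKO over WT with bars of 1 SE (n = 3 libraries per group) for 18 of the 19 tested genes of interferon-gamma signalling (black) and 21 other target genes (purple), sorted within each list. Socs1 and Socs3 are at -2.69 and -2.63 in the first list, and 20 of the 21 targets lie below 0.

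Genes that act with the GTPases were also counted: the conjugation machinery of autophagy that guides IRGs and GBPs to membranes, and the caspase and gasdermin genes that respond when GBPs expose bacterial lipopolysaccharide. All 20 were tested, 0 were called in edgeR, and the median was -0.13. An unadjusted p under 0.05 in edgeR was found for 4 of the 20, against 24.1% of all genes tested. Casp4, the gene of the caspase that binds lipopolysaccharide (also called caspase-11), was at 6.25, 6.91 and 11.9 CPM in WT and at 2.59, 5.43 and 1.81 CPM in IRF8-cKO, without overlap (-1.35, SE 0.48, adjusted p = 0.137). It passed without IRF8-cKO-88 (-1.93, adjusted p = 0.0316). Pycard, the inflammasome adaptor gene, stood at -2.14 (adjusted p = 0.0758 in edgeR) on 6 to 39 reads. Casp1 (-0.22, adjusted p = 0.814) and Gsdmd (0.08, adjusted p = 0.924) overlapped between groups. Atg5, required for the conjugation of LC3, was at 40.8, 33.5 and 26.4 CPM in WT and 60.1, 48.1 and 48.8 CPM in IRF8-cKO, without overlap (0.64, SE 0.27, adjusted p = 0.183).

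Cell type markers were summed per library, since immune, endothelial and duct cells also express these GTPases, and each marker had a read in at least 1 library. Summed neutrophil markers (12 genes) ranged from 183 to 225 CPM in WT and from 23.5 to 53.3 CPM in IRF8-cKO, cholangiocyte markers (7) from 456 to 938 and from 129 to 250 CPM, and erythroid and platelet markers (9) from 232 to 333 and from 105 to 158 CPM. T and NK cell markers (16), from the main sources of interferon gamma, overlapped at 5.76 to 11.1 and 7.69 to 11.8 CPM. Kupffer cell markers (10) ranged from 105.7 to 132 CPM in WT and were 343, 248 and 116 CPM in IRF8-cKO. Igtp and Irgm2 were also highest in IRF8-cKO-71, but their order in the other 2 was the reverse, and the part of Kupffer cells in their values was not tested. Endothelial markers (9) overlapped at 150 to 217 and 147 to 223 CPM. Dendritic cell markers (9) stood at 9.13 to 11.5 and 8.08 to 8.85 CPM, monocyte and macrophage markers (11) at 141 to 148 and 94.9 to 134 CPM. The neutrophil, cholangiocyte, erythroid and platelet, dendritic cell and monocyte sums were below every WT library in all IRF8-cKO libraries, as were Gbp3, Gbp6, Gbp7 and Gbp9. Their part in the GBP values was not tested. Single markers did not all follow these sums. Log2 fold changes were positive for 3 of 10 tested monocyte and macrophage markers and for 1 of 5 dendritic cell markers. They were positive for 0 tested markers of the neutrophil, cholangiocyte, and erythroid and platelet lists. The groups overlapped for B cell markers (6), at 6.71 to 16.3 and 3.21 to 6.85 CPM. The 11 hepatocyte markers summed to 99081 to 143221 CPM in WT and 72473 to 99755 CPM in IRF8-cKO; all 11 were detected.

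**Figure D5:**
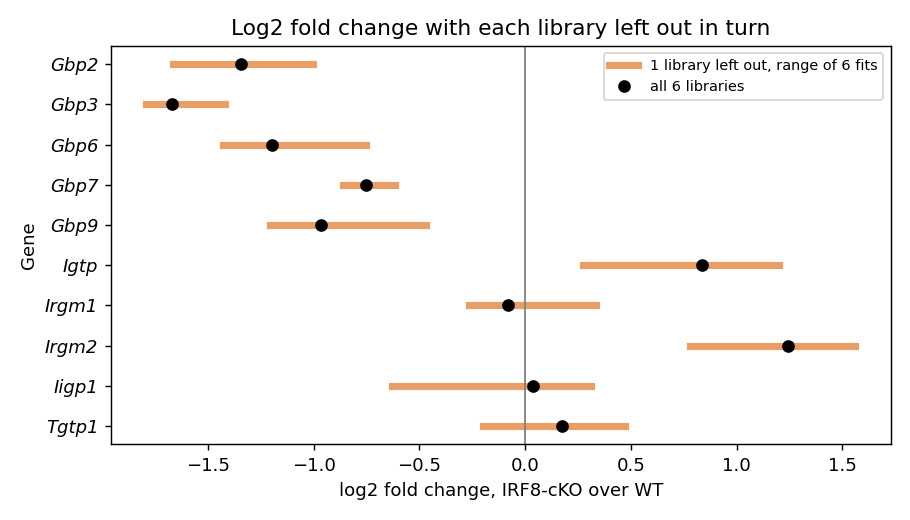
Log2 fold change of each member on all 6 libraries (black point) and the range over the 6 fits that each leave out 1 library (orange bar). The bars of the 5 GBP genes, Igtp and Irgm2 stay on 1 side of 0, and those of Irgm1, Iigp1 and Tgtp1 cross it.

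With 1 library left out at a time, the values of 7 members kept their sign. The bars for Gbp9 (-1.21 to -0.47) and Igtp (0.27 to 1.20) were the widest of these relative to their value, moved by WT-77 and IRF8-cKO-71, respectively. Iigp1 ranged from -0.63 to 0.31, Irgm1 from -0.27 to 0.34 and Tgtp1 from -0.20 to 0.47.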

How the data were processed

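Bulk RNA was sequenced from 6 injured liver lobes. Per the submitters' processing notes, the authors used HISAT2 2.0.5, featureCounts 1.5.0-p3 and genome build mm10. The deposited values are raw counts per gene, not normalised. How strand and multiply mapped reads were treated, and which annotation release was used, is not given in the sources used here. Gene lengths in bases are those in the deposited table. Groups and library numbers come from the titles.

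Library totals ran from 14758237 to 16805830 counts. edgeR 4.0.16 (R 4.3.3) kept 13134 genes by filterByExpr (minimum count 10, minimum total 15), applied TMM factors, and fitted a robust quasi-likelihood model with group as its term. Tests were two-sided, and p-values were adjusted over all 13134 genes with a threshold of 0.05. The biological coefficient of variation was 37.1%. CPM and RPKM are counts over TMM-adjusted totals, and log2 CPM used a prior count of 2. The SE is the absolute log2 fold change over the square root of F. Alternatives used DESeq2 1.42.0, limma 3.58.1 (voom), other factors and filters, summed near-copies and left-out libraries. Left-out fits of the other pathway genes, and of members with DESeq2 and limma-voom, were chosen after seeing the data. The procedure was tested on simulated data. Exon overlaps and shared 50-base stretches come from GENCODE M21, and promoter windows from RefSeq GRCm38.p6. Named genes are the 10 members, family genes with at least 10 reads in 1 library, called genes or else the 2 lowest p of each pathway list, a fixed set of pathway genes, and the 5 nearest profiles, of which some are left out here. The members and lists were chosen with earlier results of these data known.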

Additional observations from a re-analysis of the deposited data

How the results depend on the processing

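The 5 GBP members stayed below 0 and Igtp and Irgm2 above 0 under all 14 alternatives, Gbp6 also with the reads of Gbp10 added. Gbp3 passed in 3 of 14 (no low-count filter, DESeq2, and without IRF8-cKO-88) and Irgm2 in 2 of 14 (no low-count filter, and without IRF8-cKO-88). Irgm1 turned to 0.13 with library totals, Iigp1 to -0.10 with limma-voom and Tgtp1 to -0.29 with Tgtp2 added. With each library left out in turn, Irgm1 ranged from -0.27 to 0.34, Iigp1 from -0.63 to 0.31 and Tgtp1 from -0.20 to 0.47. The number of members called was 2 with no low-count filter (7.15% of all genes called) and 1 with DESeq2 (11.3%). With a library left out, edgeR called 0 to 2 members and limma-voom 0. DESeq2 called 1 (Gbp3) in 5 of the 6 fits and 3 (Gbp3, Igtp and Irgm2) without IRF8-cKO-88. Over all genes, DESeq2 called from 483 (without WT-44) to 2215 (without IRF8-cKO-88) in these fits, and limma-voom from 0 to 859. The members' median in edgeR ranged from -0.74 to -0.20 over the left-out fits. The number of all genes called was 82 with library totals, 1723 with no low-count filter, 1423 with DESeq2 and 111 with limma-voom, against 182. In edgeR it ranged from 0 to 1205 with a library left out. The 0 arose in edgeR without WT-77 (where 1988 genes had p under 0.05 before adjustment and DESeq2 called 485, limma-voom 0). It was 1 when WT-44 was left out, 20 for IRF8-cKO-106 and 1205 for IRF8-cKO-88. Library totals moved the median of all genes from 0.03 to 0.25, and the members' median to -0.22. The WT level of Iigp1 over that of Irgm1 was 25.1 per deposited length, 13.5 without length and 13.4 with exon bases of GENCODE M21 (chosen after the data were seen). The cause of these shifts was not tested. No paired analysis was possible because the library numbers of the groups differ. Low read counts, as for Tgtp1, Gbp6 and Gm12250, limit what these libraries can show.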

Other observations

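Genes nearest to parts of the GTPase families were looked up after the values of the members had been seen. The mean profile of the 5 GBP genes was closest to Sorl1 (root mean square difference 0.11 in centred log2 CPM over 6 libraries), Cnn3 (0.14), Cxcl9 (0.16), Cdh5, the gene of vascular endothelial cadherin (0.17), and the matrix metalloproteinase gene Mmp9 (0.17). These 5 genes had log2 fold changes from -0.97 for Cnn3 to -1.38 for Mmp9, and none passed in edgeR (adjusted p from 0.070 for Cdh5 to 0.0990 for Sorl1).

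The mean of Igtp and Irgm2 was closest to Rnf214 (0.095), Ctdsp1 (0.11), Srr, encoding serine racemase (0.12), the nuclear receptor gene Nr2f6 (0.13) and Klc2 (0.13), with log2 fold changes from 0.99 for Ctdsp1 to 1.14 for Klc2 that did not pass in edgeR (adjusted p from 0.137 to 0.203). No gene of interferon signalling was among them, but only the nearest few genes were listed. A link of Igtp and Irgm2 to interferon signalling was not tested.

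Iigp1 lay closest to Slc16a1, the gene of the lactate transporter MCT1 (0.12), and Zbtb8a (0.16), Ing1 (0.21) and Sdccag8 (0.22) were also among the nearest. Centred log2 CPM of Slc16a1 was 0.32, -0.05 and -0.04 in WT and -0.53, 0.85 and -0.55 in IRF8-cKO. The matching values of Iigp1 were 0.48, -0.05 and -0.27, and -0.51, 0.93 and -0.58. All genes share the same 6 libraries, and with so few many genes can share a profile.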
